A study of Mus musculus with 19 samples.

Results

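Sleep deprivation was examined in the forebrain of wild-type mice by comparing the 6 arrays titled as sleep-deprived wild type with the 4 arrays titled as wild-type control. These 10 arrays were chosen by their titles alone, from 19 arrays in all, and every row of the deposited matrix was used. Both groups were wild-type littermates of EphA4 knockout mice on a strain background given as Mixed BL6/10. The light cycle was 12 h light and 12 h dark, and the groups differed in that one group was left undisturbed while the other was kept awake for 6 h. The labels state neither age, sex nor time of day, nor whether each array came from its own animal. The p-values therefore measure the spread between these samples, which may be technical. The remaining 9 arrays, 4 knockout controls and 5 sleep-deprived knockouts, served to estimate the spread and as a second genotype beside the wild type. No row carried the symbol Epha4, so the genotype labels had no check from its level.

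Enforced wakefulness raises sleep pressure, which is read out as deeper sleep once rest is allowed. In the rodent forebrain it is known for its effect on transcripts of neuronal activity, the circadian clock, protein folding in the endoplasmic reticulum, RNA-binding proteins that respond to temperature, and glucocorticoid signalling. Keeping an animal awake also engages the adrenal stress hormones, whose receptor is itself a transcription factor.

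MicroRNAs are short RNAs that pair with messenger RNAs through a seed, and 2 precursors with a row of their own stood at the low end of the comparison. Their mature sequences are shown because their names alone do not say which messages they could pair with. They are from RefSeq (GRCm38.p6), written 5′ to 3′, and the capitals mark the seed, bases 2 to 8. Mir376a lies at chr12:109723781-109723848 on the plus strand, in the large imprinted microRNA cluster of that chromosome, and gives the first pair of sequences. Mir219a-2 lies at chr2:29845631-29845727 on the minus strand and gives the last one, a microRNA abundant in oligodendrocytes.
mmu-miR-376a-5p: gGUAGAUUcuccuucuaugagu
mmu-miR-376a-3p: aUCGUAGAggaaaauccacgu
mmu-miR-219a-5p: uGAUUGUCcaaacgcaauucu
The 3 seeds differed from one another, and each was carried by 1 of the 1679 mature microRNAs in that table. The array probes the precursor region, so its value is not a measure of the mature strand.

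Each row holds 1 deposited log2 value per array, and 1 unit on this scale is a doubling. Of 8751 rows, 1308 carried 1 gene symbol, 1178 carried several and 6265 were unnamed here, and 346 rows repeated the values of an earlier one. A row of several symbols is given by all its symbols and assigned to no single gene. The series warns that its tables are incomplete, so the absence of a gene says nothing about the tissue. No listed marker of forebrain identity had a row, and neither did listed markers of astrocytes, microglia, endothelium or meninges. Of the neuronal markers only Map2, a dendritic microtubule protein, was present, at 11.8 in both groups. The tissue label thus rests on the titles.

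The arrays of the sleep-deprived group did not form a single cloud. Array medians ran from 5.90 to 6.04, and correlations between arrays were 0.992 to 0.993 among controls, 0.986 to 0.992 among sleep-deprived arrays and 0.984 to 0.993 across the groups. On the first principal component, which held 25.8% of the variance, the controls scored from -10.2 to -0.787. Sleep-deprived replicates 1, 2 and 4 scored 19.3, 11.8 and 7.23, above all controls, while replicates 3, 5 and 6 scored -8.01, -3.70 and -3.88, within the control range. Replicates 1 and 2 also had the highest medians, 6.04 and 6.02. Replicate 6 stood apart on the second component at -17.0. For some rows the difference is also given without replicates 1 and 2. Rows without such a value can depend on these arrays too. The cause of the position of replicates 1 and 2 was not tested.

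**Figure D1:**
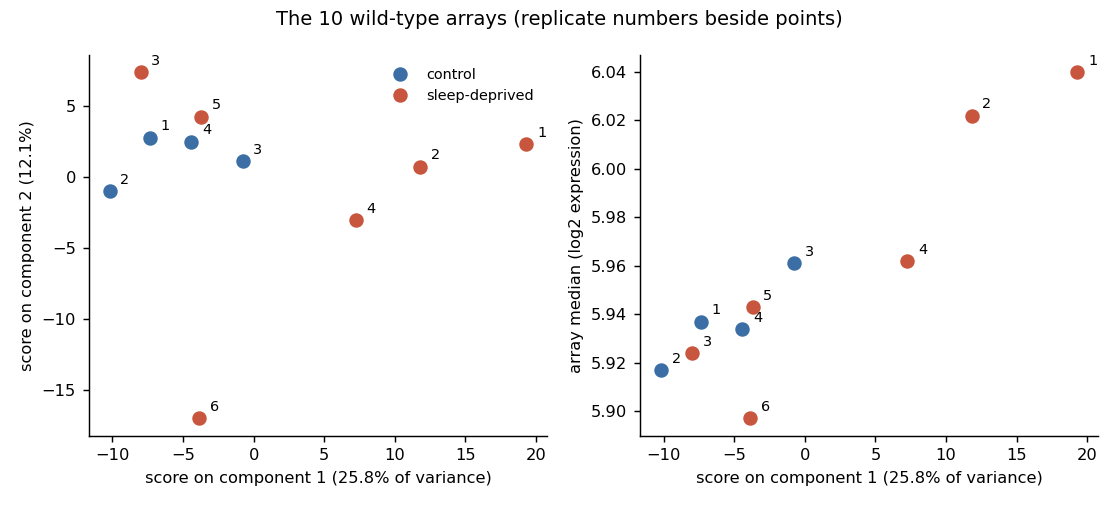
Scores of the 10 wild-type arrays on the first 2 principal components (left) and array median in log2 units against the first score (right), with the replicate number beside each point. Sleep-deprived replicates 1, 2 and 4 lie to the right of all controls, replicates 3, 5 and 6 lie among them, and replicates 1 and 2 have the highest medians.

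No row passed the test for sleep deprivation in wild type. With limma's moderated test and Benjamini-Hochberg adjustment over 8751 rows, 0 rows had an adjusted p under 0.05 (0% of rows), and the smallest adjusted p was 0.0843, shared by the 2 rows under 0.1 (0.0229%). At an unadjusted p under 0.05 there were 683 rows (7.80%), of which 387 had a higher mean after sleep deprivation (4.42%) and 296 a lower one (3.38%). In 143 rows (1.63%) the 6 sleep-deprived values lay wholly outside the 4 control values, above them in 78 (0.891%) and below them in 65 (0.743%). Differences were small: the median absolute log2 difference was 0.085, the 99th percentile 0.443, and the median standard error 0.105. A log2 difference past 0.5 was seen in 17 rows upward and 27 downward, and none passed 1.

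The balance of directions depended on how the arrays were scaled. Of the 683 rows, 56.7% had the higher mean after sleep deprivation. The share was 43.3% with each array centred on its median (280 higher, 366 lower) and 50.2% after quantile normalization (339 and 336). Without sleep-deprived replicates 1 and 2 only 435 rows remained at that level, 4.97% of all, with 195 higher and 240 lower. No excess of higher or lower rows can thus be stated.

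The 3 kinds of row did not differ much in how many reached an unadjusted p under 0.05, with 7.42% of rows with 1 symbol, 7.39% of rows with several and 7.96% of unnamed rows. Complete separation of the groups was counted in 2.72% of rows with several symbols (24 above, 8 below), in 1.68% of rows with 1 symbol (11 and 11) and in 1.42% of unnamed rows (43 and 46). The differences between these shares were not tested, since rows are not independent. In the knockout, which shares no array with this comparison, 44.4% of all rows had a difference of the same sign as in wild type. Among rows with an unadjusted p under 0.05 in wild type that share was 69.0% of 87 rows with several symbols, 52.6% of 97 rows with 1 symbol and 40.5% of 499 unnamed rows. The share over all rows of each kind was not computed, and repeated or related rows were each counted. Nothing is thus read from the differences between these shares.

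**Figure D2:**
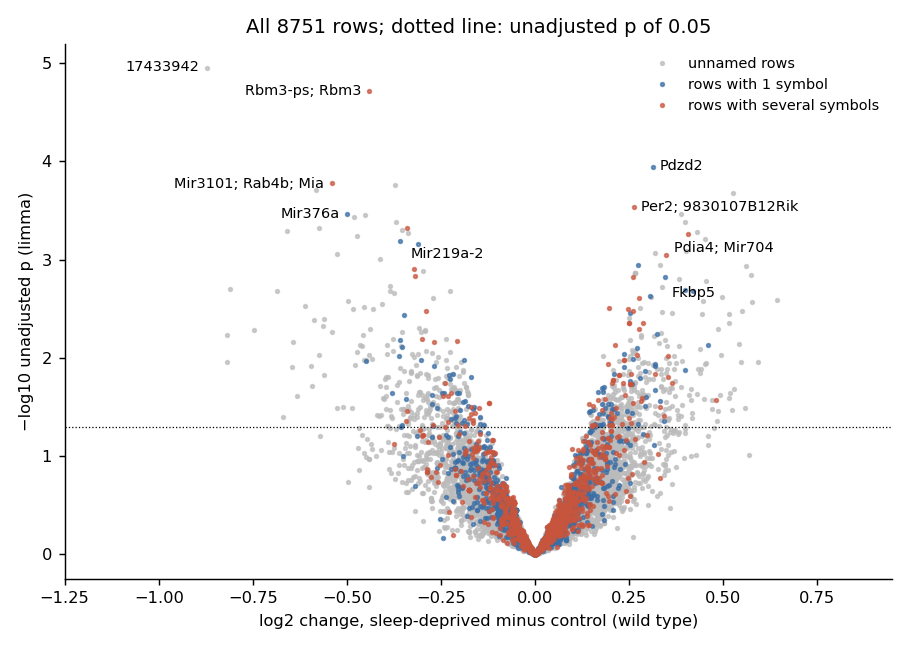
Each point is 1 of the 8751 rows, with the log2 difference between sleep-deprived and control wild-type arrays across and minus log10 of limma's unadjusted p upward; the dotted line marks an unadjusted p of 0.05. The unnamed row 17433942 and the row of Rbm3-ps and Rbm3 have the smallest p, both on the lower side, and Pdzd2 has the smallest p among rows with 1 symbol.

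Among RNA-binding proteins, the row annotated to Rbm3 and its pseudogene Rbm3-ps was the annotated row with the smallest p. Rbm3 encodes an RNA-binding protein that is induced by cold. The controls read 10.8, 10.82, 10.9 and 10.67, and the sleep-deprived arrays 10.31, 10.25, 10.38, 10.28, 10.53 and 10.39. All 6 sleep-deprived values lay below all 4 controls. The mean went from 10.8 ± 0.0945 (SD, n = 4) to 10.36 ± 0.102 (SD, n = 6), a log2 difference of -0.44 ± 0.08 (SE) with limma's adjusted p = 0.0843. The exact two-sided permutation test of this row gave p = 0.00952, the smallest that 4 against 6 arrays can give, not adjusted for the number of rows. In the knockout the difference was -0.33, and the difference between genotypes was 0.11 (limma, adjusted p = 0.727). The row passed the threshold in 4 of 31 alternative settings, with limma's adjusted p between 0.0195 and 0.467 over them. Without sleep-deprived replicate 5 it passed (adjusted p = 0.0475), and without replicates 1 and 2 the difference was -0.40 (adjusted p = 0.393).

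The other RNA-binding and splicing genes of the fixed list stood closer to 0. Of 6 such genes with a row of their own, 3 were higher and 3 lower with a median of -0.03, and of the 5 rows with several symbols besides that of Rbm3, 1 was higher and 4 lower with a median of -0.02, against 0.02 over all rows. Hnrnpu, a nuclear matrix RNA-binding protein, went from 10.47 ± 0.0497 (SD, n = 4) to 10.26 ± 0.178 (SD, n = 6). Its 6 sleep-deprived values ran from 10.04 to 10.52, and 5 of them were below all controls (log2 difference -0.21, limma's adjusted p = 0.612). Without replicates 1 and 2 its difference was -0.14. Pcid2, a subunit of a messenger RNA export complex, separated completely, from 6.01 to 6.20 in controls and from 5.82 to 6.00 after sleep deprivation. Its difference was only -0.14, and in the knockout it was 0.30 (difference between genotypes 0.44, limma's adjusted p = 0.179).

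Among circadian clock genes, no gene of 26 had a row of its own, and 2 appeared on rows of several symbols. Per2, a repressor in the core clock loop, shared its row with the unnamed clone 9830107B12Rik. Controls read 8.23, 8.32, 8.19 and 8.17, and sleep-deprived arrays 8.39, 8.51, 8.48, 8.46, 8.55 and 8.54. The highest control was thus below the lowest sleep-deprived array. The log2 difference was 0.26 ± 0.06 (SE), a 1.20-fold higher mean, with limma's adjusted p = 0.227, and it was 0.28 in the knockout (adjusted p = 0.0586). Over its alternative settings the adjusted p in wild type stayed between 0.0567 and 0.563. The row of Csnk1e, a kinase that phosphorylates PER proteins, and Gm16059 differed by -0.01, and its sign changed between settings.

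Protein folding was represented by few rows. The row of Pdia4, a protein disulfide isomerase of the endoplasmic reticulum, and the microRNA Mir704 was the only one of the endoplasmic reticulum stress list. Controls read 7.78, 7.76, 7.67 and 7.82, and sleep-deprived arrays 8.16, 8.11, 8.22, 8.11, 7.97 and 8.06, so that the groups did not overlap. Its log2 difference was 0.35 ± 0.09 (SE; limma's adjusted p = 0.268), beside 0.43 in the knockout (adjusted p = 0.0572). Hspa8, the constitutive cytosolic Hsc70 chaperone, overlapped between groups, with 10.07 to 10.27 in controls and 10.19 to 10.52 after sleep deprivation. The 3 heat shock and chaperone genes with rows of their own gave 1 positive and 2 negative differences, and the 5 rows of several symbols 3 positive and 2 negative. None of these 8 rows had an unadjusted p under 0.05.

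The glucocorticoid list had 3 of its 27 genes on rows of their own, and all 3 had a higher mean after sleep deprivation, with a median log2 difference of 0.27 against 0.02 over all rows. The members Fkbp5 and Gpd1 reached an unadjusted p under 0.05 and did not overlap between groups, which over all rows held for 7.80% and 1.63% respectively. Fkbp5 encodes a co-chaperone that restrains the glucocorticoid receptor. Its controls read 7.77, 7.48, 7.72 and 7.59 and its sleep-deprived arrays 7.97, 8.13, 7.95, 7.79, 8.13 and 7.94. The lowest sleep-deprived array, replicate 4, was just above the highest control. The difference was 0.35 ± 0.09 (SE; limma's adjusted p = 0.304) in wild type and 0.49 in the knockout, where it passed (adjusted p = 0.0439). The difference between genotypes was 0.15 (adjusted p = 0.689).

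Gpd1, a cytosolic glycerol-3-phosphate dehydrogenase whose transcript is induced by glucocorticoids in glia, read 6.62, 6.69, 6.80 and 6.57 in controls and 6.93, 6.98, 6.89, 7.04, 6.97 and 6.86 after sleep deprivation. The gap between the highest control and the lowest sleep-deprived array was smaller than the range within either group. The log2 difference of the means was 0.27 ± 0.07 (SE, limma's adjusted p = 0.304). In the knockout it was 0.10. Nr3c2, the mineralocorticoid receptor, read 6.21 to 6.34 in controls and 6.26 to 6.58 after sleep deprivation, and these ranges overlapped. With 3 members the list's median was the value of Gpd1 itself. The difference of Gpd1 ran from 0.24 to 0.32 over 32 alternative settings and was 0.27 without replicates 1 and 2. The list's median adds nothing to that gene. These 3 genes were known from earlier results of these data or chosen with them in view, and their count supports no direction for the list.

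**Figure D3:**
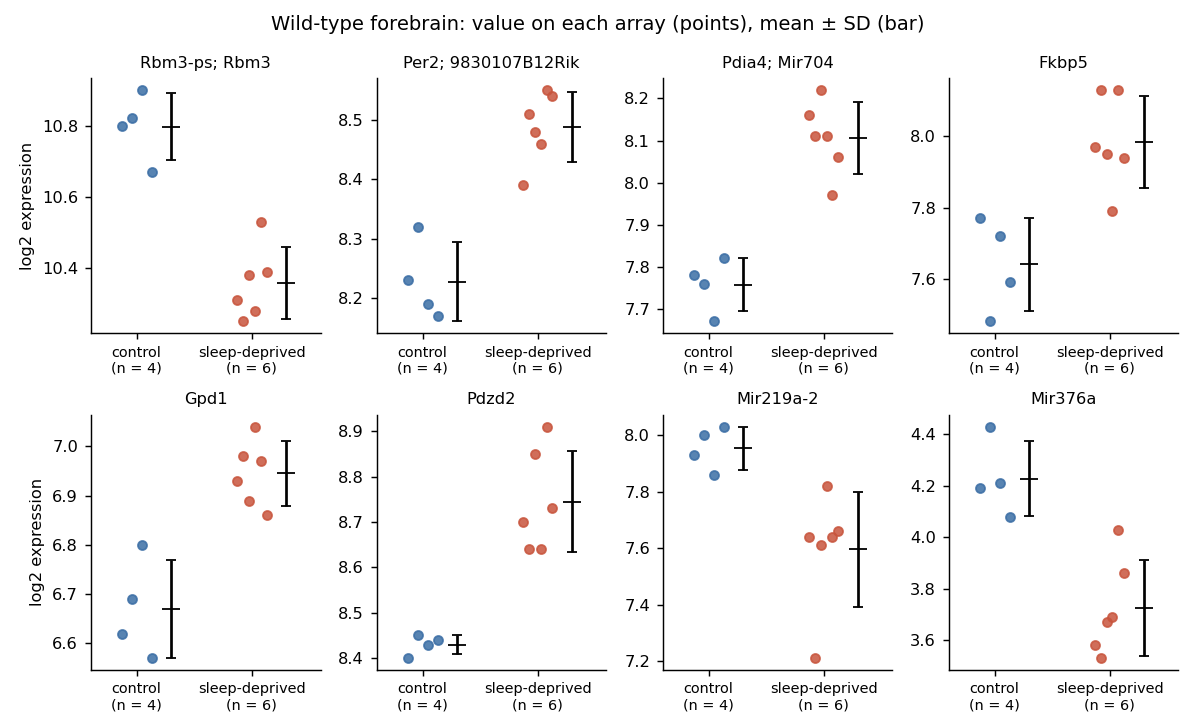
Log2 expression on each of the 4 control and 6 sleep-deprived wild-type arrays for 8 rows, with mean and SD as a bar beside the points; axes differ between panels and do not start at 0. In each of the 8 rows the groups do not overlap, and no row passed the adjusted threshold.

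The row of Mrps6, a mitochondrial ribosomal protein, and Slc5a3, the sodium-dependent carrier of the osmolyte myo-inositol, was tight in both groups. Controls read 8.39, 8.40, 8.35 and 8.39, and sleep-deprived arrays 8.54, 8.62, 8.55, 8.64, 8.52 and 8.59. The gap between the groups was wider than the range of the controls. Their means differed by 0.20 ± 0.06 (SE; limma's adjusted p = 0.392) on the log2 scale, beside 0.17 in the knockout. The row of Phyhd1 and Lrrc8a, which encodes the essential subunit of the volume-regulated anion channel, differed by 0.41 ± 0.10 (SE; limma's adjusted p = 0.227). Its sleep-deprived replicate 1, at 7.61, lay among the controls, which ran from 7.41 to 7.73, and the other sleep-deprived arrays were at 7.92 to 8.21. Without replicates 1 and 2 its difference was 0.48, and in the knockout it was 0.38.

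Acsl3, an enzyme that activates long-chain fatty acids, shared a row with Utp14b, a retrogene in its locus. The 4 controls lay within 9.11 to 9.14, and the sleep-deprived arrays read 9.31, 9.28, 9.45, 9.5, 9.44 and 9.34. No sleep-deprived value approached the controls. The row's log2 difference was 0.26 ± 0.07 (SE; limma's adjusted p = 0.304), with 0.22 in the knockout. Ormdl2, which restrains the first enzyme of sphingolipid synthesis, ranged from 7.81 to 8.15 in controls and from 8.21 to 8.45 after sleep deprivation. Its difference was 0.31, and 0.04 in the knockout (difference between genotypes -0.27, limma's adjusted p = 0.421). The calcium-dependent membrane-binding protein Anxa11 shared its rows with Gm2274 and Gm2260. Its 3 rows held 2 distinct profiles, both without overlap between groups and both 0.25 higher. Fabp5, a fatty acid carrier, had 2 rows with lower means, by -0.26 and -0.27, and both overlapped between groups.

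Among genes with a row of their own, Pdzd2 had the smallest p. It encodes a protein with several PDZ domains, and its controls lay within 8.40 to 8.45. The sleep-deprived arrays read 8.70, 8.64, 8.85, 8.64, 8.91 and 8.73, all above the controls. The log2 difference was 0.31 ± 0.06 (SE; limma's adjusted p = 0.227), and it passed in 1 of 32 alternative settings, the test of only rows with 1 or several symbols (adjusted p = 0.0405). Without replicates 1 and 2 it was 0.35, and in the knockout it was 0.17. Arhgap26, a GTPase-activating protein, had an even narrower control range of 6.97 to 6.99. Its sleep-deprived values ran from 7.05 to 7.27, a log2 difference of 0.18 (limma's adjusted p = 0.61), with 0.18 in the knockout.

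Of genes with a row of their own and a higher mean, the 12 with the smallest p were taken. Predicted genes, clones, small RNAs and olfactory and vomeronasal receptors were passed over. The 12 differed by 0.18 to 0.40, with limma's adjusted p from 0.227 to 0.61. Of them, 7 were free of overlap (0.891% over all rows). Selection by smallest p favours such separation, so nothing is read from that count. In the knockout, 8 of the 12 had a difference of the same sign. Ndufa11, an accessory subunit of respiratory complex I, had the largest difference of the 12. Its controls read 7.03, 7.05, 6.91 and 7.09, and its sleep-deprived arrays 7.37, 7.61, 7.39, 7.49, 7.32 and 7.34. All sleep-deprived arrays exceeded all controls, by a log2 difference of 0.40 ± 0.11 (SE; limma's adjusted p = 0.347). In the knockout it was -0.09, with a difference between genotypes of -0.49 (adjusted p = 0.254). The other complex I rows had small differences of both signs: -0.09 for Ndufa12, 0.06 for the row of Ndufb2 and Adck2, 0.06 for that of Ndufs5-ps and Ndufs5, -0.06 for that of Ndufb4, Ndufb4b and Ndufb4c, and -0.01 for that of Ndufs6 and Ndufs6b. Outside complex I, Atp5l differed by -0.21 and Uqcrb by -0.11, both with overlap. The 5 respiratory chain genes with rows of their own, Ndufa11 among them, gave 1 positive and 4 negative differences. Their median was -0.09, or -0.03 without replicates 1 and 2.

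Other genes of this group were Wdr78, which encodes an axonemal dynein chain of motile cilia, and Sez6l2, a neuronal membrane protein. Wdr78 ran from 7.79 to 8.04 in controls and from 8.06 to 8.25 after sleep deprivation, with a difference of 0.25, and of 0.26 in knockout mice. It was the only one of 12 listed choroid plexus and ependymal markers with a row, and none of the others could be set beside it. Sez6l2 had 2 rows, 0.26 and 0.32 higher, and both overlapped between groups. The brighter one ran from 10.72 to 10.85 in controls and from 10.79 to 11.32 after sleep deprivation. The genes of DNA replication and the cell cycle, Mybl2 (0.24) and Pole (0.21), had control and sleep-deprived ranges that overlapped and knockout differences of -0.03 each.

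**Figure D4:**
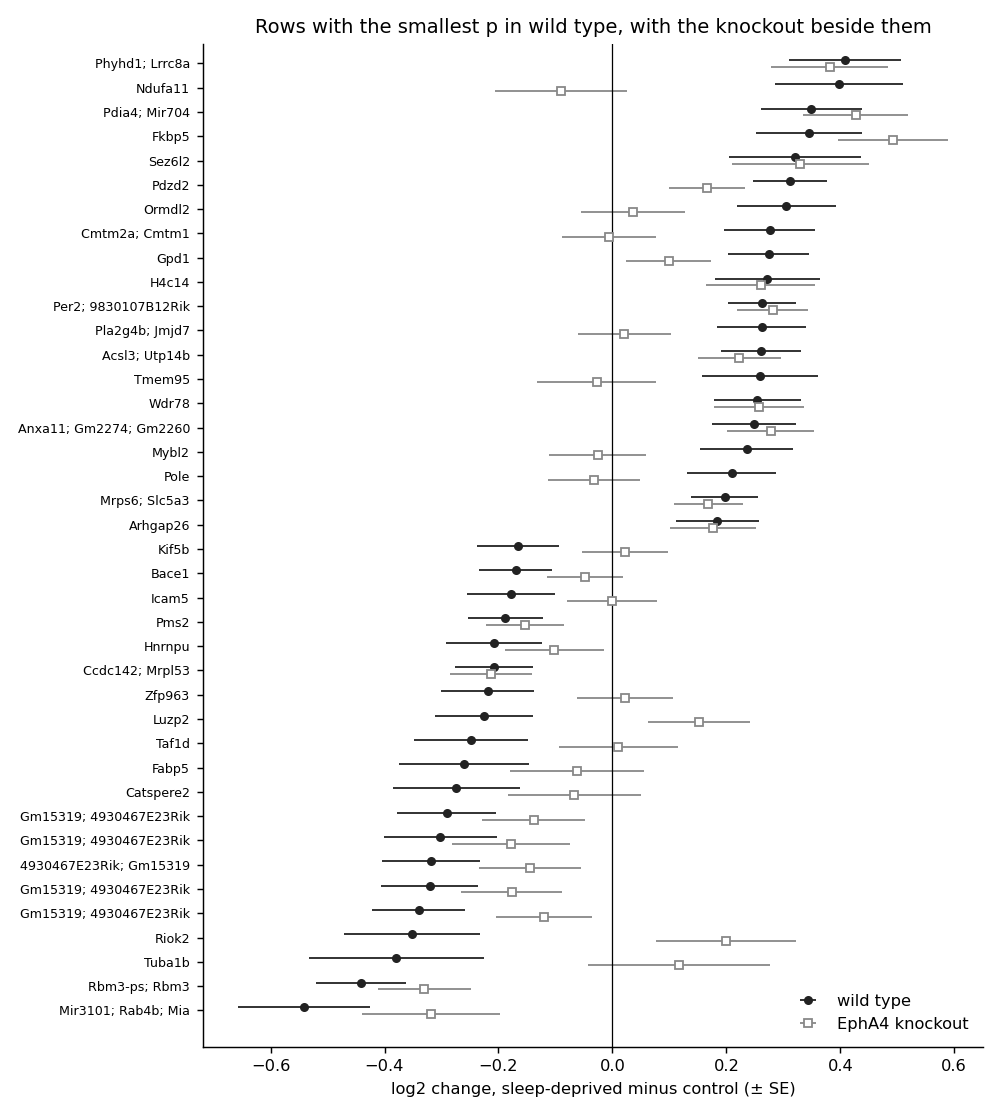
Log2 difference between sleep-deprived and control arrays, with standard error, in wild type (filled circles) and in the knockout (open squares). The rows are those with 1 or several symbols and the smallest p in wild type. Among rows with 1 symbol, predicted genes, clones, small RNAs and olfactory and vomeronasal receptors were passed over. The wild-type values were used to choose the rows; rows such as Fkbp5, Wdr78 and the Per2 row have a knockout value near the wild-type one, whereas those of Ndufa11, Ormdl2 and Riok2 lie near or beyond 0.

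Of genes with a row of their own and a lower mean, the 12 with the smallest p were taken, with the same kinds passed over. Mir376a and Mir219a-2, described below, had a smaller p than these 12 and no overlap, but were passed over as small RNAs. Among the 12, 2 were free of overlap (0.743% over all rows). They were Pms2, a DNA mismatch repair protein, and Bace1, the β-secretase that cleaves the amyloid precursor protein. Pms2 read 7.49, 7.6, 7.49 and 7.6 in controls and 7.34, 7.18, 7.45, 7.35, 7.43 and 7.37 after sleep deprivation. The difference was -0.19 ± 0.07 (SE; limma's adjusted p = 0.563), beside -0.15 in knockout mice. Bace1 read 9.09 to 9.28 in controls and 8.87 to 9.08 after sleep deprivation, and its highest sleep-deprived array nearly met the lowest control. Its difference was -0.17, and -0.05 in knockout mice. Over the 12 genes limma's adjusted p ran from 0.546 to 0.62, and 6 had the same sign in the knockout.

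Riok2, a kinase of small ribosomal subunit maturation, had the smallest p of these 12 and overlapped, with 5.58 to 5.98 in controls and 4.99 to 5.73 after sleep deprivation. Its difference was -0.35, and 0.20 in knockout mice, and the difference between genotypes did not pass (0.55, limma's adjusted p = 0.227). Tuba1b, an α-tubulin, read 6.99, 7.06, 6.78 and 7.23 in controls and 6.12, 6.29, 6.89, 6.92, 6.76 and 6.83 after sleep deprivation. Its low mean came mainly from replicates 1 and 2, and the log2 difference of -0.38 (limma's adjusted p = 0.612) was -0.16 without them. Icam5, a dendritic adhesion molecule of forebrain neurons, and Kif5b, a kinesin heavy chain, differed by -0.18 and -0.17, both with overlap. Leaving out replicates 1 and 2, the difference of Icam5 was -0.12. Of the 5 tubulin, actin and motor genes with rows of their own, 4 were lower, among them Actg1 (-0.19) and Tuba1a (-0.16), and the median was -0.17, or -0.11 without replicates 1 and 2. Actg1 and Tuba1a each had another, dimmer row, with differences of -0.24 and -0.19 (limma's adjusted p = 0.612 and 0.62). The row of Tuba3a and Tuba3b, α-tubulins known from testis, went the other way, from 6.66 to 6.93 in controls and from 6.95 to 7.40 after sleep deprivation.

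The rows of several symbols with lower means were led by the row of Mir3101, Rab4b and Mia, after that of Rbm3. Rab4b is a GTPase of endosome recycling, and Mia a secreted protein of cartilage. Controls read 5.90, 5.88, 5.75 and 5.63, and sleep-deprived arrays 4.97, 5.07, 5.39, 5.16, 5.62 and 5.29. Replicate 5 was just below the lowest control, and the others were well below it. The log2 difference was -0.54 ± 0.12 (SE; limma's adjusted p = 0.227), or -0.62 without replicate 5, where the row passed (adjusted p = 0.0475). Without replicates 1 and 2 it was -0.42, and in the knockout it was -0.32. The predicted genes Gm15319 and 4930467E23Rik shared 6 rows with distinct profiles. All 6 had lower means, between -0.34 and -0.27, all 6 had an unadjusted p under 0.05, and 2 were free of overlap. The 6 rows read related sequences and are not 6 independent observations.

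The microRNA precursors differed in both directions. Of 43 with a row of their own, 20 had a higher and 23 a lower mean with a median of -0.02, and of 92 rows with several symbols 43 were higher and 49 lower with a median of -0.01. An unadjusted p under 0.05 was reached by 2 in each direction among the 43, beside 7.80% of all rows. Mir376a, whose mature sequences are given above, read 4.19, 4.43, 4.21 and 4.08 in controls and 3.58, 3.53, 3.67, 3.69, 4.03 and 3.86 after sleep deprivation. All sleep-deprived values lay below the controls, though replicate 5 came within reach of the lowest. These values are near the dim end of the deposited scale, which starts at 2.18. The log2 difference was -0.50 ± 0.12 (SE; limma's adjusted p = 0.227) in wild type and 0.19 in the knockout, whose controls, at 3.72 ± 0.0981 (SD, n = 4), were at the level of the sleep-deprived wild type. The difference between genotypes was 0.69 (adjusted p = 0.179).

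Of the same cluster on chromosome 12, Mir409, Mir380, Mir377 and Mir299a had rows of their own, and they are named here after their values were seen. Their log2 differences were -0.13, -0.04, -0.02 and 0.04, all smaller than that of Mir376a. Mir219a-2 read 7.93, 8, 7.86 and 8.03 in controls and 7.64, 7.21, 7.61, 7.82, 7.64 and 7.66 after sleep deprivation. Every sleep-deprived array was below every control, with replicate 2 the lowest by far. The log2 difference was -0.36 ± 0.09 (SE; limma's adjusted p = 0.238), and it was -0.27 without replicates 1 and 2. In the knockout it was -0.36 as well. Mir219a-2 was the only one of 16 oligodendrocyte markers with a row, and in bulk tissue fewer cells of a type and less RNA per cell cannot be told apart. Mir9-1 and Mir9-2, precursors of a microRNA of neural progenitors and neurons, differed by -0.10 and -0.07, and the let-7 precursors Mirlet7e, Mirlet7f-1 and Mirlet7i by -0.09, 0.07 and 0.08.

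Small nucleolar RNAs guide the modification of ribosomal RNA. Their list also took in spliceosomal RNAs, Rnu12 on a row of its own and Rnu1b genes on a row of several symbols. Of 11 members with rows of their own, Rnu12 among them, 10 had a lower mean, with a median log2 difference of -0.14. None of the 11 was free of overlap. Over all rows 55.7% of differences were positive. The largest difference was that of Snord19, at -0.45, whose sleep-deprived arrays ran from 5.05 in replicate 1 to 6.18 in replicate 3, against 6.09 to 6.28 in controls. Its difference was -0.30 once replicates 1 and 2 were left out, and in the knockout it was 0.32. Without replicates 1 and 2 the median of the 11 was -0.03, and that of the 29 rows with several symbols went from -0.05 to 0.0004. The size of this difference thus rested on those arrays. The 24 ribosomal proteins with rows of their own had 7 higher and 17 lower means around a median of -0.03, which changed sign in 1 of 32 settings.

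Of 50 rows that carry several histone symbols, 38 had a higher mean and 12 a lower one, beside 55.7% positive over all rows. Their median of 0.07 stayed positive in all 31 alternative settings and was 0.05 without replicates 1 and 2. Many of the 50 rows list the same genes, so they are not 50 independent observations. Variant symbols (H3f3, H2al or H2ab) were on 15 of them, 12 higher and 3 lower. Among the 50 rows, 5 reached an unadjusted p under 0.05, all higher, and 2 were free of overlap, beside 7.80% and 1.63% of all rows. Of 10 histone genes with rows of their own, 4 were higher, H4c9 (0.34) and H4c14 (0.27) the most, and 6 lower, with a median of -0.05 that changed sign in 2 of 32 settings. Many of these genes lie in clusters of near-identical copies, and signal from one copy and from another cannot be told apart. H4c14 overlapped between groups, with 6.51 to 6.71 in controls and 6.63 to 7.07 after sleep deprivation, and it differed by 0.26 in the knockout.

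Olfactory and vomeronasal receptors, which the forebrain is not known for, were mostly higher and dim. Of 38 with rows of their own, 26 had a higher mean, with a median of 0.06, and of 60 rows with several symbols 52 were higher, with a median of 0.09. Many of the 60 rows list the same receptors, so they are not 60 independent observations. Over all rows 55.7% were positive, with a median of 0.02. The median level of the 38 was 4.44 to 4.61 in controls and 4.43 to 4.93 after sleep deprivation. Without replicates 1 and 2 the medians were -0.02 and 0.03. Of 28 zinc finger genes with rows of their own 20 were lower, with a median of -0.05, and 1 lower and 0 higher at an unadjusted p under 0.05. Of 36 rows with several zinc finger symbols 21 were lower, with 1 higher at that level and a median of -0.01 that changed sign in 4 of 31 settings.

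**Figure D5:**
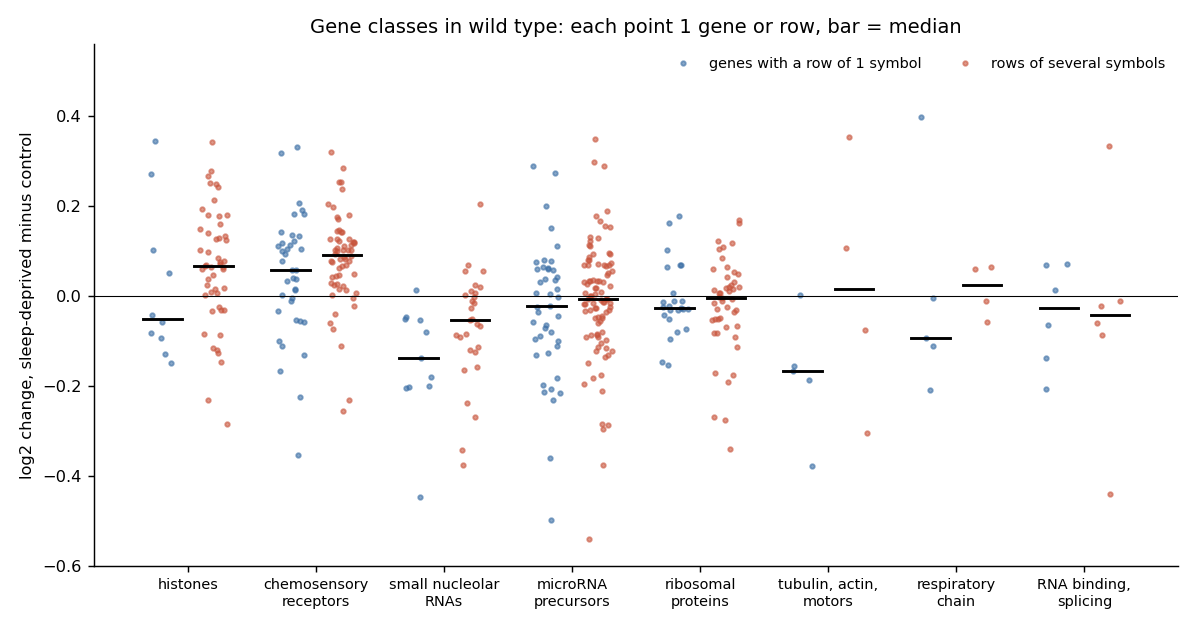
Log2 difference between sleep-deprived and control wild-type arrays for the members of 8 gene classes, with genes on rows of their own in blue and rows of several symbols in red; the bar is the median. Small nucleolar RNAs sit mostly below 0, as do tubulin, actin and motor genes on rows of their own. Rows of several tubulin, actin and motor symbols lie on both sides of 0, and chemosensory receptors sit mostly above 0. Without sleep-deprived replicates 1 and 2 the medians of small nucleolar RNAs and chemosensory receptors come close to 0.

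Synaptic and neuromodulatory genes were sparse and showed small differences. Of glutamate synapse genes, Grin2c and Grin2d, subunits of the NMDA receptor, and Shank3, a postsynaptic scaffold, differed by -0.11, 0.05 and 0.02. The row of Mir592 and Grm8, a presynaptic glutamate receptor, differed by -0.21, and its groups overlapped. For inhibitory neurons, Abat, which degrades GABA, differed by -0.13, or -0.06 without replicates 1 and 2, and Slc32a1, its vesicular carrier, by 0.01. Of adenosine genes, the transporter Slc29a1 and the receptor Adora3 differed by 0.10 and 0.06. The histamine receptor Hrh3 differed by 0.09. Of 44 genes of the immediate early list only Elk1, a transcription factor that MAP kinases phosphorylate, had a row, and it differed by 0.13, with 9.29 to 9.44 in controls and 9.37 to 9.61 after sleep deprivation. In each of these genes the ranges of the groups overlapped, and limma's adjusted p was 0.621 or above. Cholesterol synthesis had no gene with a row, and the Eph and ephrin list had Chn1, a Rac GTPase-activating protein downstream of EphA4, which differed by -0.09.

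Hemoglobin rows, which mark blood left in the tissue, differed in both directions. The 5 rows of several symbols differed by -0.10 to 0.22 with a median of 0.06, or 0.18 without replicates 1 and 2, and their median level was 7.55 to 8.13 in controls and 7.14 to 8.21 after sleep deprivation. Gbx2, a gene of thalamus and of the border between midbrain and hindbrain, differed by 0.11, with sleep-deprived replicate 5 at 6.58 and the others at 6.74 to 6.84. The part that cell composition or dissection has in the differences above was not tested beyond these values.

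The unnamed rows held the largest differences. Row 17433942 had the smallest p of all. Its controls read 7.18, 7.55, 7.44 and 7, and its sleep-deprived arrays 6.45, 6.36, 6.82, 6.20, 5.92 and 6.76. The groups did not overlap, and the log2 difference was -0.87 ± 0.15 (SE; limma's adjusted p = 0.0843), a 1.83-fold lower mean. It passed in 6 of 30 alternative settings, among them those without sleep-deprived replicate 3 (adjusted p = 0.0251), 5 (0.0475) or 6 (0.0412). In the knockout it was -0.11, and the difference between genotypes did not pass (0.77, adjusted p = 0.211).

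Row 17267654, also unnamed, was the 1 row of those named for which the response differed between genotypes in the test of that difference. In wild type the controls read 5.47, 5.82, 5.62 and 5.49 and the sleep-deprived arrays 6.16, 5.83, 5.96, 6.06, 5.84 and 6.07. In the knockout the controls ran from 5.95 to 6.17 and the sleep-deprived arrays from 5.53 to 5.82, so the order of the groups was turned. The log2 differences were 0.39 and -0.37, and the difference between them was -0.76 ± 0.13 (SE; limma's adjusted p = 0.0231). Such a difference between genotypes passed in 6 of all rows (0.0686%).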

How the data were processed

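Per the labels' protocols, total RNA of forebrain was labelled with biotin for Mouse Gene 2.0 ST arrays. The authors deposited 1 log2 value of expression for every probe set and array. The submitters' processing notes name RMA (background correction, quantile normalization and probe summary), oligo and limma without versions; the roles of these tools and the build of the genome are not given in the sources used. No value column belonged to another series.

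Groups came from the titles. Means of the 4 groups were fitted to the 19 arrays with limma 3.58.1 in R 4.3.3, without covariates, and moderated p-values of all 8751 rows had Benjamini-Hochberg adjustment, with 0.05 as threshold. Single rows also had an exact permutation test over the 210 choices of groups (Python 3.11.15). Symbols came from the platform annotation, which can be old. Of 1121 genes with a row of 1 symbol, each counted once, 1045 were matched by identifier to GRCm38.p6. A gene with several rows was represented by the brightest. Plots used matplotlib 3.10.9.

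Members and gene lists were chosen with earlier results of these data known. Named were the 12 genes with 1 symbol, 8 rows with several and 5 unnamed rows of smallest p in each direction, up to 4 members of each list (all where it had at most 5), 3 microRNA precursors, small nucleolar RNAs and chemosensory receptors each, and genes known from those earlier results. Predicted genes, clones, small RNAs and receptors were passed over in the first of these. Patterns that defined 4 of the lists were corrected on gene names to drop pseudogenes and host genes. Scripts were tested on simulated data. Alternatives covered the arrays fitted, prior variance, array weights, scaling, row filters, replicate block, threshold and left-out arrays. Precision is limited by the number of arrays, which have no read depth.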

Additional observations from a re-analysis of the deposited data

Results flagged for a closer look

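The response of the unnamed row 17267654 differed between the genotypes, by -0.76 on the log2 scale (knockout minus wild type), in the test of that difference.

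Single arrays stood far from the others of their group in 15 of 242 groups looked at among the named rows, and chance alone flags about 1 in 20 groups. Among the controls, replicate 1 was high for Mybl2 (5.86, the others 5.63 to 5.66), Hnrnpu (10.54) and a row of Ptges3 and Ptges3-ps (8.44, the others 8.30 to 8.32). Control replicate 2 was high for the row of Snora81 and Eif4a2 (7.79, the others 7.32 to 7.38) and for that of Tmsb15b1, Tmsb15l and Tmsb15b2 (6.57, the others 5.87 to 5.88), and low for Adora3 (5.79). Control replicate 3 was low for a row of Gm15319 and 4930467E23Rik (7.99, the others 8.24 to 8.28) and for the row of Snord2 and Eif4a2 (8.25, the others 8.40 to 8.41).

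Among sleep-deprived arrays, replicate 1 was low for the row of Gpr141 and Srsf10 (5.24, the others 5.70 to 5.77) and for the row that carries Rpl21 among 6 symbols (7, the others 7.84 to 8.20), and high for the row of H2-Q2 and H2-D1 (6.82). Replicate 2 was low for Mir219a-2 (7.21, the others 7.61 to 7.82). Replicate 3 was high for the row of Slc29a3 and Gm15466 (9.32, the others 8.86 to 9.02). Replicate 5 was low for Gbx2 (6.58) and Adora3 (5.96, the others 6.03 to 6.05).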

How the results depend on the processing

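The count of 0 rows called by limma (683 at an unadjusted p under 0.05) became 2 with an intensity trend in the prior variance, 2 without the dimmest 40% of rows, 2 with only rows of 1 or several symbols, and 2 at an adjusted p under 0.1. With only the 10 wild-type arrays in the fit the count stayed 0. There limma's smallest adjusted p was 0.376, beside 0.0843 in the main fit, which also used the spread of the knockout arrays. The count was 0 to 3 when 1 of the 19 arrays was left out, with 1 call without sleep-deprived replicate 3 or 6 and 3 without replicate 5. Of the rows higher and lower at an unadjusted p under 0.05 (387 and 296), 253 higher were left without the dim rows, 60 and 47 with only rows of 1 symbol, and 125 and 81 with only rows of 1 or several symbols, where fewer rows were tested. Without sleep-deprived replicates 1 and 2, a setting chosen after seeing the data, 195 were higher; the cause was not tested. Same-numbered control and sleep-deprived arrays did not deviate together (correlations -0.072, -0.045, -0.18 and 0.0056). Such correlations can miss a small shared effect, so they do not settle whether the numbers pair the samples. With the replicate block 1 row was called (17433942, adjusted p = 0.0483), and 0 with wild-type replicates 1 to 4 alone.

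Of 121 named rows, 114 kept the sign of their difference in every setting in which they were tested. The 7 others changed sign, with main differences from -0.10 to 0.06. Map2 was -0.00883 and Shank3 -0.00446 with arrays centred on their medians. Without sleep-deprived replicates 1 and 2, Shank3 was -0.0101, the row of Hbb-b1, Hbb-bs and Hbb-b2 0.00477, and that of Mir10a and Hoxb4 -0.015. With the replicate block on all arrays and on wild-type replicates 1 to 4, the row of Hbb-b1, Hbb-b2 and Hbb-bs was -0.031 and -0.0505, that of Mir10a and Hoxb4 -0.0181 and -0.0364, and that of Csnk1e and Gm16059 0.0161 and 0.0245. Centring gave -0.00962 for Mir10a and Hoxb4 and -0.0207 for Slc32a1, and quantile normalization -0.00498 for Slc32a1. With 1 array left out at a time, the range was -0.00144 to 0.0531 for Shank3, -0.218 to 0.0239 for Hbb-b1, Hbb-bs and Hbb-b2, -0.0908 to 0.197 for Hbb-b1, Hbb-b2 and Hbb-bs, -0.0387 to 0.0626 for Mir10a and Hoxb4, -0.0681 to 0.0244 for Csnk1e and Gm16059, and -0.0104 to 0.0202 for Slc32a1. Of 31 list medians, 20 changed sign in some setting. With 4 and 6 arrays and a median standard error of 0.105, most differences here are within the error of single rows.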

Other observations

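Gene groups not described above showed small differences. Of 5 ubiquitin pathway genes with rows of their own 4 were lower, with a median log2 difference of -0.02, and Usp49, a deubiquitinase, differed by -0.13. Of 5 class I histocompatibility genes with rows of their own 3 were higher and 2 lower, with a median of 0.02 that changed sign in 6 of 32 settings. The row of H2-Q7, H2-Q9 and H2-Q8 read 7.94 ± 0.0359 (SD, n = 4) in controls and 8.11 ± 0.18 (SD, n = 6) after sleep deprivation, a difference of 0.18, against -0.29 in the knockout; the difference between genotypes was -0.47 (limma's adjusted p = 0.211). Without sleep-deprived replicates 1 and 2 the wild-type difference was 0.06.

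The translation initiation helicase Eif4a2 appeared on 2 rows that it shares with small nucleolar RNAs encoded in its introns. The row with Snora81 differed by -0.34 and that with Snord2 by -0.24, and both overlapped between groups. Without sleep-deprived replicates 1 and 2 these differences were -0.14 and -0.09. Eef1a1, a translation elongation factor, differed by -0.06, and Eif3j1, an initiation factor subunit, by 0.14.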
